A study of Rattus norvegicus with 21 samples.

Results

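Gbp2, Irf1, Irf7, Isg15, Psmb8, Psmb9, Psmb10, Tap1 and B2m, 9 genes of the interferon response and the immunoproteasome, were followed in pancreatic islets, the small endocrine clusters whose beta cells make insulin. They were taken by name from a table of read counts for 28914 gene names, and all 9 had a row. The PX group was 11 Lewis rats after removal of 90% of the pancreas (partial pancreatectomy, after which the remaining islets carry the whole insulin load). Set against it were 10 Lewis rats given sham surgery. Both groups were followed for 4 weeks after surgery. The study asks how raised blood glucose acts on islets in this model. No transgene, drug or diet is named for either group. Every title also carries the tag Inc_YES, which the labels do not explain, and a 4-5 week entry is not said to be an age or a time. Each rat carries an average BG before sacrifice, given without a unit, of 101 to 174 in PX and 82 to 104 in sham. Libraries are named here by group and animal number; nothing beyond that number states that each came from a separate animal, so the p-values rest on how far these libraries spread, which may be technical.

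Interferons are secreted proteins that act through cell surface receptors, JAK kinases and STAT factors. Gamma interferon works mainly at gamma activated sites in the DNA, and type I interferons at interferon response elements. Irf1 and Irf7 are transcription factors of this response, Isg15 is a ubiquitin-like antiviral protein, and Gbp2 is a guanylate binding protein, a GTPase of cell-autonomous defence. Psmb8, Psmb9 and Psmb10 are the inducible catalytic subunits that take the places of Psmb5, Psmb6 and Psmb7 when the immunoproteasome is built. Its peptides enter the endoplasmic reticulum through a transporter of which Tap1 is one chain, and are loaded onto class I MHC molecules, whose light chain is B2m. In islets this pathway is best known from autoimmune diabetes, where class I is raised on beta cells.

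The promoters of the members are shown because they carry the letters by which interferon factors are known to act. RefSeq windows in build GRCr8, from 250 bases before to 50 bases after a gene's start, were found for 8 of the 9 members. The interferon response element core, GAAA and GAAA with any 2 bases between them, read on both strands, was in 6 of these 8 windows (Gbp2, Irf7, Psmb8, Psmb10, Tap1 and B2m) and in 3.92% of all 33469 windows. The gamma activated site TTCNNNGAA was in the windows of Irf1 and Psmb8 and in 8.87% of all windows. The NF-kB motif was in those of Irf1, Tap1 and B2m and in 7.51% of all windows. The 6 windows below are written 5′ to 3′ with every match in capitals, and no 2 matches in them overlap.
Gbp2, chr2:234005477-234005776, plus strand: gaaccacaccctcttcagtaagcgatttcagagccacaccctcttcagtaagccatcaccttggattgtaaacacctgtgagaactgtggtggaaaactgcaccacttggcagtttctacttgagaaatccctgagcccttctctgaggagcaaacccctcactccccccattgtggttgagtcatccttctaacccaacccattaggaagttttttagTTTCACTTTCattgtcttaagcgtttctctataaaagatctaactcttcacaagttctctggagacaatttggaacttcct
Psmb8, chr20:4656982-4657281, minus strand: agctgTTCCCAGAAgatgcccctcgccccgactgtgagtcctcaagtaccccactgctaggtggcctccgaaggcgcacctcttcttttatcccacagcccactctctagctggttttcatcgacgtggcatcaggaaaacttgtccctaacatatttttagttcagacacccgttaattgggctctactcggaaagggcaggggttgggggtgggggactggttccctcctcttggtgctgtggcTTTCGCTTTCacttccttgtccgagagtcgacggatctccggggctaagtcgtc
Psmb10, chr19:50743243-50743542, minus strand: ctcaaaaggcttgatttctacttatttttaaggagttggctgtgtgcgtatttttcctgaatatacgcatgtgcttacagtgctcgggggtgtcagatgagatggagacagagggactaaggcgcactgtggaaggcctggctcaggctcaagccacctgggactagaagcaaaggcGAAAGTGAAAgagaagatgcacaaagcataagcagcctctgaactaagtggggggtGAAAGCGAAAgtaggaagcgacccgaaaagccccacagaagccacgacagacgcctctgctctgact
Tap1, chr20:4668494-4668793, minus strand: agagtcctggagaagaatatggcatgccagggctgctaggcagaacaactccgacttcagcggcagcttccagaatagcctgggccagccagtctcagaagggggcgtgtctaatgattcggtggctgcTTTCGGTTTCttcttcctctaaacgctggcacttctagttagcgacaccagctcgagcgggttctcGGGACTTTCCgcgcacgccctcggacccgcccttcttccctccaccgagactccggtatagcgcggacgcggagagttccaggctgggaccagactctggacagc
B2m, chr3:129549080-129549379, plus strand: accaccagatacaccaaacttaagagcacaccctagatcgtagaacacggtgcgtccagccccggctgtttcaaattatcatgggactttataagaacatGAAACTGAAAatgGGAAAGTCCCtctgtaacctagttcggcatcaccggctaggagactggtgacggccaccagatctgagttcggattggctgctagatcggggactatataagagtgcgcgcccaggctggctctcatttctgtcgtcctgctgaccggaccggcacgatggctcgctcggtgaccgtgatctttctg
Irf1, chr10:38417685-38417984, plus strand: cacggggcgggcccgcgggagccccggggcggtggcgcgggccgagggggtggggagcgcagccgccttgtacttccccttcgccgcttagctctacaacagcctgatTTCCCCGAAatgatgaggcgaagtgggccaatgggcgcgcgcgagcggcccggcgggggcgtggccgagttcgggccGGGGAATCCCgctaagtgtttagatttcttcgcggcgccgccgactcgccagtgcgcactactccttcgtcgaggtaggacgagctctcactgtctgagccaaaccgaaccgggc
Gbp2 held the element as TTTCACTTTC, starting 31 bases before the start, and Psmb10 held it at 2 places, GAAAGTGAAA and GAAAGCGAAA, starting 73 and 17 bases before it. In Psmb8 the match TTTCGCTTTC lay across the start itself. In Tap1 an element (TTTCGGTTTC) and an NF-kB match (GGGACTTTCC) started 121 and 55 bases before the start, and in B2m an element and an NF-kB match started 150 and 137 bases before it. Irf1 held a gamma activated site, TTCCCCGAA, 142 bases before the start, and no interferon response element in these letters. The Psmb9 window held none of the 3 motifs. Psmb9 and Tap1 lie head to head on chromosome 20, and their windows share 44 bases. The starts used for these windows lie 457 bases apart, while in the deposited annotation 189 bases separate the genes. A Psmb9 start nearer to Tap1 would give a window of other letters, so the lack of a match holds for this start only. Psmb8 follows Tap1 after 943 bases. A match is a run of letters, and no binding was measured here.

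Of the 9 members, 8 had enough reads to be tested and all 8 rose in PX islets, against 14.9% of the 13136 genes tested. Their median log2 fold change was 1.26, and that of all genes tested was -0.04. Isg15 was below the minimum. Psmb9 reached the minimum of 1.43 CPM in 9 of 11 PX and 5 of 10 sham libraries, so its higher PX level helped it pass, and the share of tested members that rose is given as a description. The tests are edgeR quasi-likelihood tests with Benjamini-Hochberg adjustment over all genes tested and a threshold of 0.05. Levels are CPM, counts set to a common library size after TMM scaling. Library totals ran from 4001908 to 13187959 counts in PX and from 4695195 to 11266015 in sham. The TMM factor was 0.359 in PX 65 and 0.820 to 1.27 in the other libraries, which raises every CPM of PX 65. PX 44, Sham 46 and PX 65 stood farthest from their own groups over all genes, and all 8 tested members rose without these 3 as well, with log2 fold changes from 0.31 for Irf1 to 1.90 for Gbp2. Genes of acinar cells, the enzyme-making cells around islets, took 6.02% to 47.9% of counts in PX, most in PX 65, and 0.621% to 22.9% in sham. The levels are from whole islets, so more cells of a type and more RNA per cell cannot be told apart.

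Gbp2 had the highest fold change of the members. Its level was 11.6 CPM at the lowest, 20.5 at the median and 34.7 at the highest in PX, against 3.81, 5.79 and 7.37 CPM in sham. Every PX library lay above every sham library, which held for 1.55% of all genes tested. The log2 fold change was 1.87 ± 0.18 (SE; edgeR adjusted p = 2.3e-07), a 3.66-fold rise.

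B2m, the class I light chain, also separated the groups without overlap. It had 308, 647 and 942 CPM (lowest, median and highest) in PX, against 168, 214 and 301 CPM in sham. The lowest PX library, PX 37, was just above the highest sham library, Sham 22, while PX 36 and PX 65 were at the top with 928 and 942 CPM. The log2 fold change was 1.46 ± 0.18 (SE; edgeR adjusted p = 3.3e-06).

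All 3 inducible proteasome subunits rose. Psmb8 had 2.68, 5.10 and 14.95 CPM (lowest, median, highest) in PX, against 1.14, 2.47 and 2.91 CPM in sham, and 10 of 11 PX libraries lay above every sham library. Its log2 fold change was 1.48 ± 0.29 (SE; edgeR adjusted p = 4.9e-04). Psmb9 had 1.38, 2.96 and 8.38 CPM in PX, against 0.672, 1.49 and 1.87 CPM in sham. The PX libraries stood above the sham range in 10 of 11 cases here too, with a log2 fold change of 1.37 ± 0.27 (SE; edgeR adjusted p = 5.2e-04). Psmb10 had 9.42, 17.2 and 45.7 CPM in PX, against 5.71, 9.45 and 15.05 CPM in sham, so that 5 of 11 PX libraries fell inside the sham range. Its log2 fold change was 1.16 ± 0.27 (SE; edgeR adjusted p = 0.0027). The lowest PX library for each of these subunits was PX 44.

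Tap1, the transporter chain, had 7.78, 28.6 and 45.2 CPM (lowest, median, highest) in PX, against 12.5, 14.9 and 20.1 CPM in sham. PX libraries lay on both sides of the sham range, with 8 above it and 1, PX 44, below it. The log2 fold change was 0.83 ± 0.21 (SE; edgeR adjusted p = 0.0050) with all libraries, and 0.98 without PX 44 (edgeR adjusted p = 1.1e-04).

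The transcription factors differed in size of change. Irf7, which drives type I interferon genes, had 1.83, 4.25 and 11.9 CPM (lowest, median, highest) in PX, against 1.05, 2.34 and 3.83 CPM in sham, with 6 of 11 PX libraries above the sham range. Its log2 fold change was 0.98 ± 0.30 (SE; edgeR adjusted p = 0.015), and 0.64 without PX 58 and PX 62, where it no longer passed (edgeR adjusted p = 0.084). Irf1, an early target of gamma interferon, had 32.9, 44.2 and 54.3 CPM in PX, against 28.5, 33.6 and 43.2 CPM in sham. The groups overlapped in 5 of 11 PX libraries, and the log2 fold change was 0.30 ± 0.11 (SE; edgeR adjusted p = 0.034). The Irf1 call was lost without Sham 47, Sham 48, Sham 50, PX 57 or PX 58 (adjusted p = 0.067, 0.055, 0.058, 0.060 and 0.056), and without a filter on low counts (adjusted p = 0.082). The authors' deposited table gives the same 8 members as higher in PX, with log2 fold changes from 0.30 for Irf1 to 1.81 for Gbp2 and adjusted p-values of at most 0.040.

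Isg15 was near the limit of detection. Its raw counts in PX were 16 in PX 58 and in PX 62, 8 in PX 70 and 1 to 5 in the other 8 libraries, against 9 in Sham 73 and 1 to 5 in the other 9 sham libraries. These are 65 reads in 11 PX libraries and 37 in 10 sham libraries. Without a filter its log2 fold change was 0.74 ± 0.43 (SE), which did not pass (edgeR adjusted p = 0.21 over 20977 genes); a difference was not detectable at this depth.

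**Figure D1:**
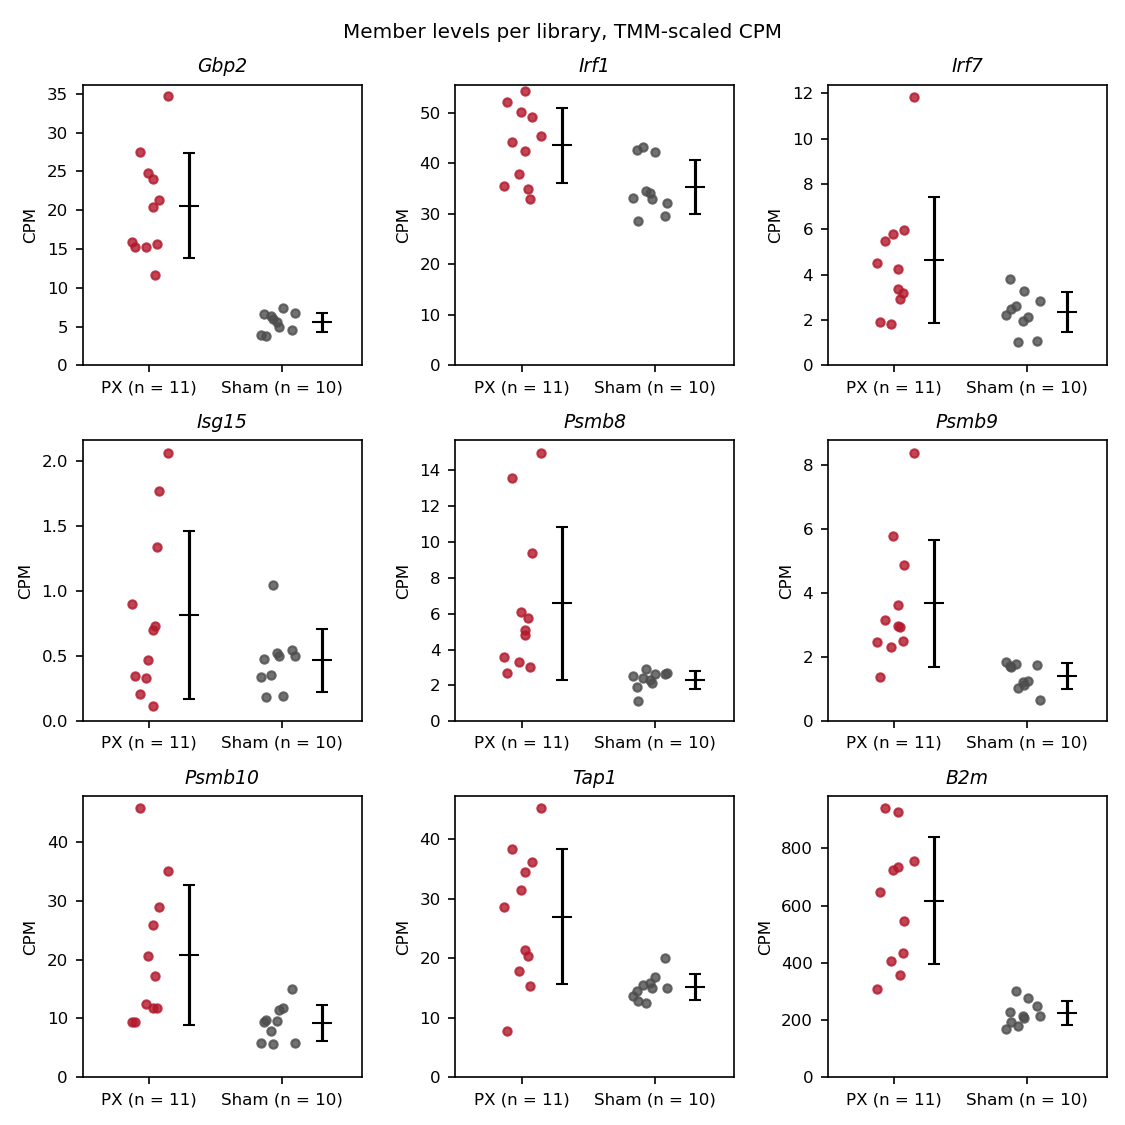
Level of each member in CPM (TMM-scaled, linear axes from 0) in 11 PX and 10 sham libraries; points are libraries, and the bar beside them is the mean ± SD. Gbp2 and B2m show no overlap between groups, while Irf1, Irf7, Isg15, Psmb8, Psmb9, Psmb10 and Tap1 overlap.

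Levels per length show how unequal the members are. On the scale of mean CPM per kilobase of gene model, B2m was at 337 ± 122 (SD, n = 11) in PX and 122 ± 23.1 (SD, n = 10) in sham. Irf1 followed at 21.3 ± 3.63 in PX and 17.2 ± 2.64 in sham, and Psmb10 at 20.8 ± 11.95 in PX and 9.25 ± 3.05 in sham. In PX these 2 means lie within their spread of each other. Gbp2 was at 8.30 ± 2.73 in PX and 2.25 ± 0.496 in sham, and Tap1 at 6.51 ± 2.74 in PX and 3.66 ± 0.532 in sham. Psmb8, Psmb9 and Irf7 had 3.18 ± 2.05, 2.42 ± 1.30 and 2.36 ± 1.42 in PX and 1.13 ± 0.245, 0.934 ± 0.265 and 1.19 ± 0.445 in sham, neighbours within their spread. Isg15 was last, at 0.622 ± 0.492 in PX and 0.357 ± 0.185 in sham.

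The constitutive catalytic subunits that the inducible ones replace did not pass the test in PX islets. The log2 fold changes were 0.18 ± 0.16 for Psmb5, 0.33 ± 0.24 for Psmb6 and 0.24 ± 0.15 for Psmb7 (SE; edgeR adjusted p = 0.44, 0.30 and 0.23). Without PX 44, Psmb6 and Psmb7 passed, at 0.50 and 0.38 (edgeR adjusted p = 0.040 and 0.011). Without PX 44, PX 65 and Sham 46, Psmb5 and Psmb7 passed, at 0.48 and 0.37 (adjusted p = 0.0056 and 0.015). The balance of each pair was then set within each library, as the log2 ratio of counts per kilobase, which does not depend on how libraries are scaled. For Psmb8 over Psmb5 the ratio was -3.97, -3.27 and -1.54 (lowest, median, highest) in PX, against -5.12, -4.08 and -3.70 in sham. In geometric means, there were 11.5 Psmb8 reads per kilobase to every 100 of Psmb5 in PX and 5.39 in sham. The difference was 1.10 on the log2 scale (two-sided permutation test, p adjusted over the 3 ratios = 3.6e-04), with 9 of 11 PX libraries above every sham library. Psmb9 over Psmb6 had ratios of -2.70, -1.68 and -1.04 in PX, against -3.34, -2.77 and -2.12 in sham, a difference of 1.04 (permutation test, adjusted p = 4.2e-04). That is 30.45 Psmb9 reads per kilobase to 100 of Psmb6 in PX and 14.8 in sham. Psmb10 over Psmb7 had ratios of -1.35, -0.27 and 0.66 in PX, against -1.71, -1.17 and -0.53 in sham, a difference of 0.85 (permutation test, adjusted p = 0.0014). Here 79.1 Psmb10 reads per kilobase stood to 100 of Psmb7 in PX and 43.9 in sham. The libraries at the ends were not the same in each pair. PX 65 was highest for Psmb8 over Psmb5 and for Psmb10 over Psmb7 but lowest of PX for Psmb9 over Psmb6. PX 44 lay above every sham library in all 3 pairs, at -3.39, -1.08 and -0.08 in the order given. Yet it was the lowest PX library for each inducible subunit, at levels inside the sham range. Its high ratios therefore rest on low levels of Psmb5, Psmb6 and Psmb7, not on high levels of the inducible subunits.

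**Figure D2:**
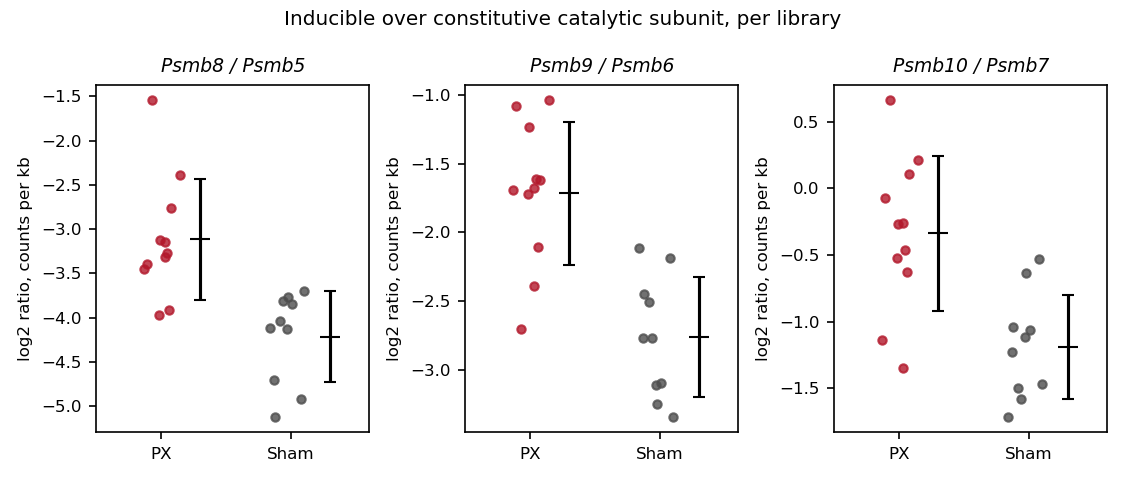
Log2 ratio of counts per kilobase for each inducible subunit over the constitutive subunit it replaces, in 11 PX and 10 sham libraries; points are libraries and bars the mean ± SD. The PX means are higher by 1.10, 1.04 and 0.85, and a few PX libraries in each pair lie inside the sham range.

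Around the members, the class I pathway rose in parts. Of 18 listed class I genes, all tested, 11 rose and 0 fell, and the median log2 fold change was 0.63. With library totals as the only scaling 4 rose, and with BG as a covariate 5. Of these genes, the class I heavy chains RT1-N3, RT1-A2 and RT1-T24-4 rose by 1.15 ± 0.18, 0.85 ± 0.16 and 0.75 ± 0.13 (SE; edgeR adjusted p = 5.9e-05, 2.9e-04 and 1.7e-04); RT1 heavy chain genes are close copies of one another, so how reads divide among them is uncertain. Tapbp, the tapasin that bridges the transporter and class I, had 56.0 ± 5.55 CPM (SD, n = 11) in PX and 39.6 ± 6.64 CPM (SD, n = 10) in sham and rose by 0.50 ± 0.09 (SE; edgeR adjusted p = 3.2e-04). With library totals Tapbp (0.27) and RT1-T24-4 (0.50) did not pass (adjusted p = 0.24 and 0.062). Tap2, the partner chain of Tap1, had 2.94 ± 1.51 CPM in PX and 1.79 ± 0.956 CPM in sham and did not pass, at 0.71 ± 0.36 (SE; edgeR adjusted p = 0.14). Nlrc5, the class I transactivator, did not pass either, at 0.30 ± 0.17 (SE; adjusted p = 0.18), though without PX 44 it did, at 0.42 (adjusted p = 0.039).

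Of all genes tested 14.9% rose, and of the 5 genes of the proteasome activator and its assembly 1 rose with all libraries. That count was 1 to 2 without each library in turn, and 0 with library totals as the only scaling, with no filter, without PX 58 and PX 62, or with the acinar score or BG as a covariate. Psme1, a subunit of the PA28 activator cap, rose by 0.32 ± 0.10 (SE; edgeR adjusted p = 0.019), while its partner Psme2 had a log2 fold change of 0.09 ± 0.16 (adjusted p = 0.68). Of 10 tested core subunits shared by both forms of the proteasome, 1 rose, Psma5 by 0.47 ± 0.15 (SE; adjusted p = 0.016), with a list median of 0.28. The counts of both lists lie near the share over all genes and are descriptions. The core subunit count depended on the libraries kept: it was 1 to 6 when each library was left out in turn, with 6 without PX 37 or Sham 49. It was 3 with DESeq2 size factors, 5 with the DESeq2 test, and 0 with library totals, where Psma5 had 0.21 (adjusted p = 0.42), or with BG as a covariate.

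Of 14 receptor and JAK-STAT genes 7 rose and 0 fell (median 0.35), but 3 rose without Sham 48 or PX 62, 4 without PX 58 and 0 with library totals as the only scaling or with BG as a covariate. The type I receptor chains Ifnar1 and Ifnar2 rose by 0.48 ± 0.12 and 0.36 ± 0.12, Jak2 by 0.38 ± 0.12 and Stat3 by 0.43 ± 0.13 (SE; edgeR adjusted p = 0.0037, 0.028, 0.019 and 0.015). The Ifnar2 call was lost without Sham 48 or PX 62 (adjusted p = 0.056 and 0.054). Among the other interferon regulatory factors 3 of 8 tested rose and 2 fell. Irf5 and Irf8, known from myeloid cells, rose by 2.44 ± 0.31 and 1.93 ± 0.37, and Irf9, a factor of the type I response, by 0.45 ± 0.14 (SE; edgeR adjusted p = 3.9e-06, 4.2e-04 and 0.019). The sham median of Irf5 was 1.01 CPM, under the minimum of 1.43 CPM, so its PX level helped it pass and its rise is a description. Irf2, which can oppose Irf1, fell by 0.56 ± 0.17 (SE; adjusted p = 0.013). This call was lost without Sham 22 or Sham 73 (adjusted p = 0.057 and 0.054), without PX 44, PX 65 and Sham 46 (0.069), and in the 8 PX of BG 121 or less (0.11). Irf9 did not pass without PX 58 and PX 62 (adjusted p = 0.081) or with library totals (0.43). Of 8 tested nucleic acid sensors and adaptors 3 rose, Tlr7 by 2.69 ± 0.42, Myd88 by 0.66 ± 0.12 and Tlr3 by 0.34 ± 0.13 (SE; adjusted p = 4.8e-05, 1.8e-04 and 0.046), and 1 rose without PX 62 or with library totals. The Tlr3 call was lost without Sham 47, Sham 48, Sham 49, Sham 50, PX 62 or PX 65 (adjusted p from 0.051 to 0.084), and Myd88 did not pass with library totals (adjusted p = 0.088). Tlr7 had at most 1.08 CPM in any sham library, so it passed the minimum through its PX level and its rise is a description.

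The ligands were all but unseen. None of the 8 listed interferon genes in the table had enough reads to be tested, and 4 had no read in any library. Ifng had 2 reads in PX 58 and 0 elsewhere, and Ifne had 2 reads over the PX libraries and 13 over the sham libraries.

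Effector genes were mixed. Of 39 tested other interferon-stimulated genes 22 rose, 2 fell and 15 did not pass, at a list median of 0.62 on the log2 scale. The 22 were 8 with library totals and 4 with BG as a covariate. Slfn2, Ifitm1, Ifitm3 and Mx1, which restrict growth or viruses, rose by 2.35 ± 0.29, 2.69 ± 0.34, 1.78 ± 0.26 and 2.30 ± 0.40 (SE; edgeR adjusted p = 3.7e-06, 4.2e-06, 2.4e-05 and 1.4e-04). Mx1 had 2.33 to 27.8 CPM in PX. Sham medians of Ifitm1 and Mx1 were 1.21 and 1.43 CPM, beside the minimum of 1.43 CPM. Their PX levels helped both pass, and their rises are descriptions. Of 12 tested genes on the list of gamma interferon GTPases, chemokines and related genes 6 rose and 1 fell (median 0.81). Cd74, Ciita, Icam1 and Socs3 rose by 2.86 ± 0.30, 2.77 ± 0.38, 2.69 ± 0.34 and 1.86 ± 0.28 (SE; adjusted p = 8.6e-07, 1.1e-05, 5.3e-06 and 3.4e-05). The first pair belongs to MHC class II presentation, Icam1 is an adhesion molecule and Socs3 a brake on JAK signalling, so those with the lowest p on this list are not its GTPases. The remaining genes of this list that rose are GTPases. Ciita had a sham median of 1.39 CPM, so its PX level helped it pass the minimum and its rise is a description. Over the 10 lists together 54 of 117 tested genes rose and 5 fell, beside 14.9% and 16.2% of all genes tested. The lists were chosen with earlier results of these data known, and some of their genes passed the minimum through their PX level. The comparison is therefore a description. The 5 that fell were 2 with DESeq2 size factors.

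**Figure D3:**
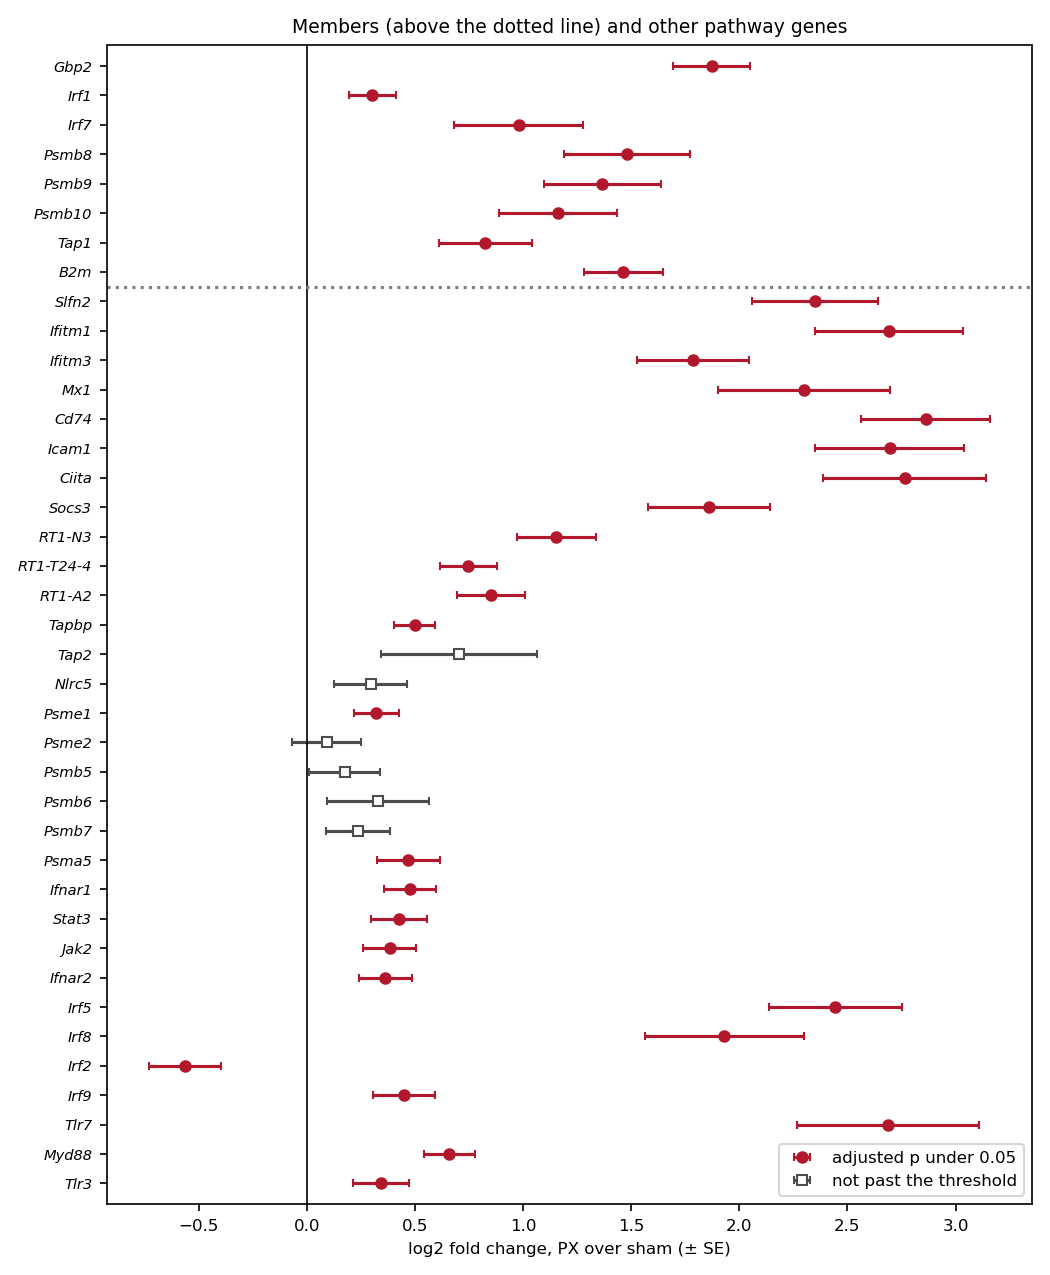
Log2 fold change of PX over sham with its SE for the 8 tested members (above the dotted line) and the named pathway genes; filled circles passed at an edgeR adjusted p under 0.05 and open squares did not. The members run from 0.30 for Irf1 to 1.87 for Gbp2, while Psme2 and the constitutive subunits Psmb5, Psmb6 and Psmb7 run from 0.09 to 0.33 with open squares.

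A few PX libraries carried the highest values. PX 62 was the highest or second highest PX library for 7 of the 9 members and PX 65 for 5. The low TMM factor of PX 65 (0.359) raises its CPM for every gene. No share over all genes was computed for these ranks, which are a description. After each group's mean was subtracted, a member's log2 CPM had a correlation over the 21 libraries with the mean of the other tested members of 0.45 for Irf1, 0.60 for B2m, 0.65 to 0.75 for Irf7, Psmb8, Psmb9, Psmb10 and Tap1, and 0.80 for Gbp2, given as a description. Among 8733 other genes of at least 10 mean CPM, those most like the members' mean by the same measure were Ostf1 (r = 0.92), Mgst1 (0.90), Ctsb (0.88), Hbb (0.87) and Clec2g (0.87). Ostf1 is an osteoclast stimulating factor, Mgst1 a glutathione transferase, Ctsb a lysosomal protease, Hbb a beta globin of red cells and Clec2g a C-type lectin.

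Markers of several other cell types were also higher in PX. All 14 tested macrophage markers rose, with a median log2 fold change of 2.74, and their summed level was 208 to 1952 CPM in PX and 47.1 to 149 CPM in sham. None of the 14 was at 0 in all libraries. Fcgr2b reached at most 1.23 CPM in sham, so that it was tested because of its PX level. The macrophage score, the mean log2 CPM of these markers, was 4.25 ± 0.951 (SD, n = 11) in PX and 1.70 ± 0.375 (SD, n = 10) in sham (two-sided permutation test, p adjusted over 6 scores = 9e-05). Its highest PX libraries were PX 62, PX 58, PX 65 and PX 41. Of 15 lymphocyte markers in the table only Cd4 and Lck had enough reads to be tested, and Cd4 is also known from rat macrophages. The lymphocyte score is the mean log2 CPM of these 2 genes only. The T cell marker Cd3e had 0.865 ± 1.03 CPM in PX and 0.0918 ± 0.0885 CPM in sham. The summed lymphocyte level was 16.3 to 90.0 CPM in PX and 9.56 to 19.9 CPM in sham. Mesenchymal, duct and endothelial scores were higher in PX as well, by 1.66, 1.35 and 0.43 (permutation test, adjusted p = 9e-05, 9e-05 and 0.0012), and the acinar score by 1.72 (adjusted p = 0.025). Of 22 tested acinar markers 4 rose and 18 did not pass, beside 14.9% of all genes tested that rose. Of 2 tested markers of plasmacytoid dendritic cells 0 rose. The part of any of these cell types in the members' rise was not tested. Islet endocrine markers were present in every library, with Ins1, an insulin gene, at 40397 CPM or more in PX and 43000 CPM or more in sham. Of 13 tested islet endocrine markers 1 rose and 3 fell.

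Within the 11 PX libraries most members rose with the macrophage score. The share of all genes that did so was not computed, so this count is a description. Pearson's r was 0.90 for Psmb8, 0.89 for Psmb9, 0.85 for Irf7, 0.82 for Gbp2, 0.79 for Psmb10 and 0.78 for Tap1 (permutation p adjusted over the 9 members, 0.0012, 0.0012, 0.0021, 0.0052, 0.0069 and 0.0068). Spearman's rho for these 6 ran from 0.77 to 0.89 (adjusted permutation p from 0.0027 to 0.011), and without the 2 libraries farthest from the median score r ran from 0.69 to 0.82. B2m, Isg15 and Irf1 did not pass, with r of 0.53, 0.42 and 0.38 (adjusted p = 0.12, 0.23 and 0.25) and rho of 0.63, 0.19 and 0.32 (adjusted p = 0.056, 0.58 and 0.39). For Isg15 r was -0.32 without the 2 farthest libraries. Within the 10 sham libraries no member passed (adjusted p = 0.28 or more); the highest r was 0.72 for Tap1, and 0.36 without the 2 farthest libraries. With the macrophage score as a covariate 0 of the 8 members passed: Gbp2 had a log2 fold change of 0.93 and B2m of 0.71 (edgeR adjusted p = 0.25 and 0.44), while Psmb8, Psmb9, Psmb10, Tap1 and Irf7 turned to -0.57, -0.39, -0.57, -0.59 and -0.66 (adjusted p of 0.52 or more). The score shares 0.767 of the variance of group, so surgery and the macrophage score cannot be told apart in this fit. Of all genes, 7 rose in this fit, beside 1961 without the score. Without PX 58 and PX 62, 2 of the libraries with the highest score, 6 of 8 members passed, all but Irf1 and Irf7. With the acinar score as a covariate 4 members passed, Gbp2, B2m, Psmb8 and Psmb9. With library totals as the only scaling, which moves the median of all genes by -0.236, 5 passed, Gbp2, B2m and the 3 inducible subunits. Of all genes, 1306 rose with the acinar score and 990 with library totals, beside 1961 in the main fit. For the fit without PX 58 and PX 62 no count of all genes that rose is given.

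**Figure D4:**
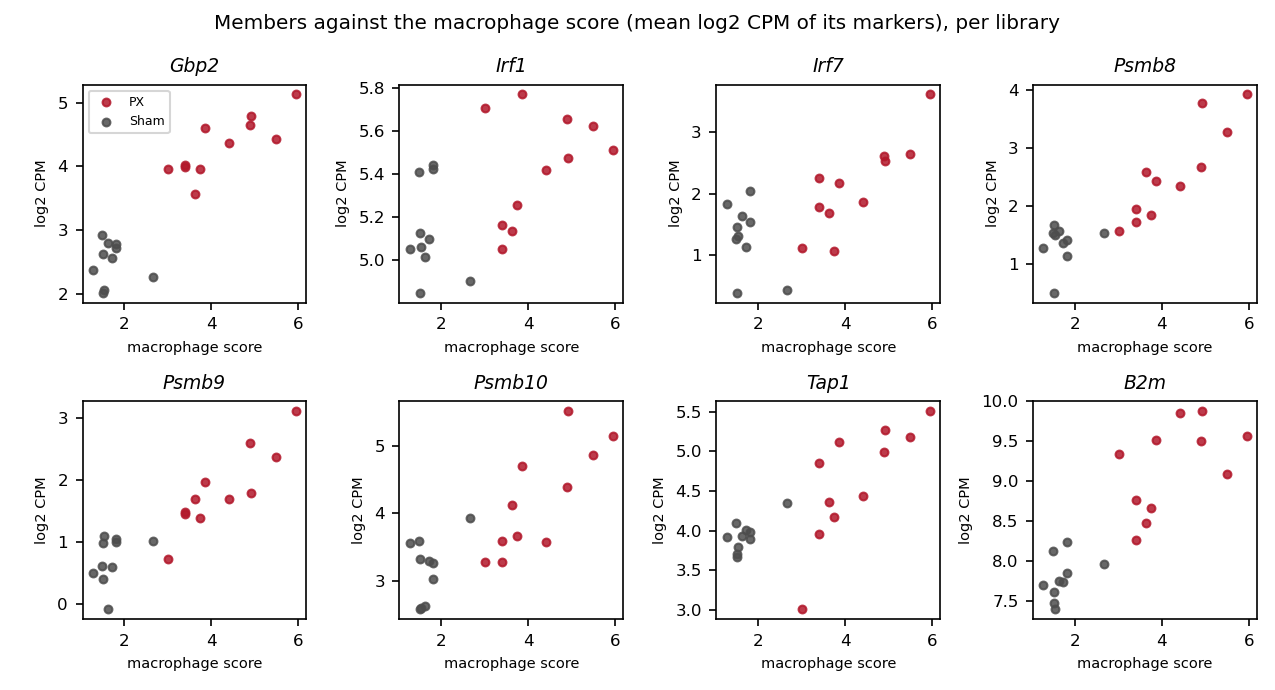
Log2 CPM of the 8 tested members against the macrophage score (mean log2 CPM of 14 markers), 1 point per library. Psmb8, Psmb9 and Irf7 climb with the score among the PX libraries, while the sham libraries form a group at low score.

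Set against BG, no member passed. In the edgeR fit over the 11 PX libraries, slopes per 10 units of BG ran from 0.03 ± 0.04 for Irf1 to 0.18 ± 0.08 for Psmb10 on the log2 scale (SE), with B2m, Psmb8 and Tap1 at 0.12 ± 0.06, 0.12 ± 0.10 and 0.11 ± 0.08. All these slopes lie below 0.25, the smallest slope tried in simulated counts, where 55% of genes were recovered. Slopes of the members' size can therefore be missed. The lowest adjusted p of a member was 0.38, for Psmb10, the only member with an unadjusted p under 0.05 (0.039). Of all 13136 genes 0 passed in either direction (0% rising and 0% falling), 1653 had an unadjusted p under 0.05, and DESeq2 called 12 rising and 11 falling, no member among them. Pearson's r with BG in PX was 0.61 for Psmb10 and 0.57 for B2m (adjusted permutation p = 0.19 for each), with Spearman's rho of 0.55 and 0.58 (adjusted p = 0.16 for each). Without PX 65 and PX 41, the animals of the highest BG, r was 0.36 and 0.37, and among the 8 PX rats with a BG of at most 121 it was 0.11 and 0.21. Isg15 had a negative r of -0.57 (adjusted p = 0.19) and a rho of -0.52 (adjusted p = 0.16). In sham, over a narrow range of BG, r ran from -0.03 to 0.46, and no member passed (adjusted permutation p = 0.94 for each). In PX islets of BG 121 or less against sham, 7 of the 8 members rose, all but Irf1 (0.28, edgeR adjusted p = 0.082). No share over all genes is given for that fit, so the count is a description. With BG as a covariate 3 passed, Gbp2, B2m and Psmb9. Of all genes, 679 rose in the fit with BG, beside 1961 in the main fit. BG shares 0.438 of the variance of group, so surgery and BG cannot be fully told apart in it.

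**Figure D5:**
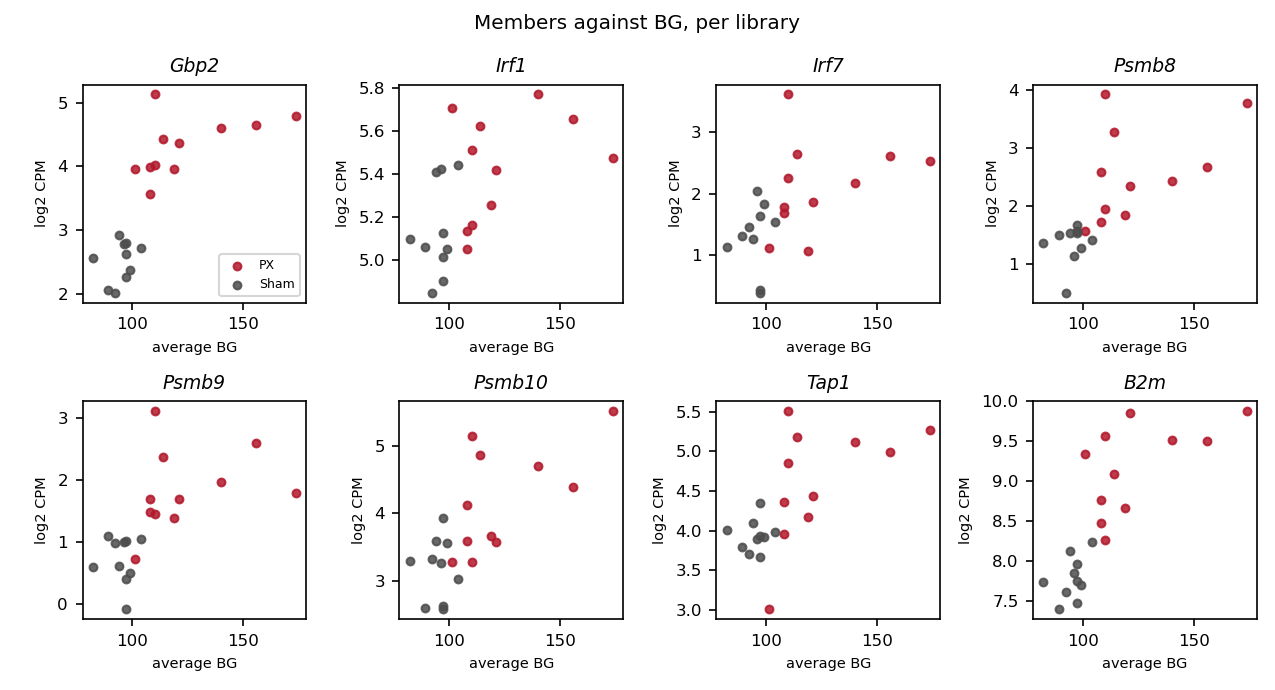
Log2 CPM of the 8 tested members against the average BG of each animal (no unit given), 1 point per library. The PX libraries spread from 101 to 174 and the sham libraries from 82 to 104, so the groups overlap little in BG. Every PX point for Gbp2 and B2m lies above every sham point, whatever its BG.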

How the data were processed

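PolyA RNA of rat islets was sequenced in 21 libraries (directional kit, per the labels), with groups, animal numbers and BG taken from the sample titles. Per the submitters' processing notes, the authors used FastQC, Subread, featureCounts and limma, without versions; no source used here gives aligner settings, the strand setting or the genome build. Values in the deposited count table are whole read counts per gene name, not normalized, per the file headers, with a gene length in base pairs. The authors' deposited comparison table gives a log2 fold change, its linear fold ratio, a mean log2 expression and a p-value with its adjusted p.

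From the counts, edgeR 4.0.16 (R 4.3.3) filtered genes with filterByExpr by group (minimum count 10, minimum total 15), scaled libraries by TMM and fitted robust quasi-likelihood models; slope fits used the same genes in the 11 PX libraries. Log2 CPM used a prior count of 2, and subunit ratios a pseudocount of 0.5 counts. Permutation tests used 100000 resamples (scipy 1.17.1). Alternatives used DESeq2 1.42.0 and limma 3.58.1. In simulated counts over 13008 genes, 79% of genes changed by 1 and 30% of those changed by 0.5 on the log2 scale were recovered for PX against sham. Library pairs within a group differed by more than sampling noise (lowest chi-square per degree of freedom 4.43, Sham 73 and Sham 74). PX 44, Sham 46 and PX 65 stood farthest from their groups (median r 0.914, 0.917 and 0.920). Members and lists were chosen with earlier results of these data known. Named genes are the members, up to 4 called genes a list with the lowest p and at least 1 mean CPM, and Psmb5, Psmb6, Psmb7, Psme1, Psme2, Tap2, Nlrc5 and Irf9; 1 further gene of this rule is not reported here. Covariate fits with the lymphocyte score and fits without PX 58 and PX 62, or without PX 44, PX 65 and Sham 46, were chosen after seeing the data.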

Additional observations from a re-analysis of the deposited data

Results flagged for a closer look

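In the 10 sham libraries, 1 sample stood far from the others in 5 of 43 measures examined (gene levels and the 3 subunit ratios), all 5 of them gene levels; chance flags about 1 in 20 groups. Isg15 was 1.05 CPM in Sham 73, where the next sham library had 0.545 CPM, a gap that rests on 9 reads. Sham 46 stood above the other sham libraries for Icam1 (5.89 CPM, next 3.02), Socs3 (4.14 CPM, next 1.90), Psmb5 (34.0 CPM, next 21.5) and Irf8 (12.5 CPM, next 6.17). Sham 46 also had the highest macrophage score of the sham libraries, 2.66, beside these values; its part in them was not tested.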

How the results depend on the processing

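The 3 subunit ratios kept their direction and passed with a pseudocount of 5 counts and without each library in turn (0.939 to 1.18, 0.976 to 1.14 and 0.7502 to 0.951). The 8 members that rose were 7 to 8 without each library in turn, 5 with library totals, and 4, 0, 3 and 2 with the acinar score, the macrophage score, BG and the lymphocyte score as covariates. Genes that rose (1961) were 990, 1306, 7, 679 and 109 in these 5 fits, and 1709 to 2607 without each library in turn. The lymphocyte score, of Cd4 and Lck only, shares 0.601 of the variance of group, so surgery and this score cannot be fully told apart. Genes that fell (2127) were 955, 1, 175 and 6 with the 4 covariates, 957 with the 8 PX of BG 121 or less, 1390 without PX 58 and PX 62, and 1304 to 2258 without each library in turn. Pathway genes that rose (54) were 21 with library totals, 0, 19 and 2 with the macrophage score, BG and the lymphocyte score, and 48 to 66 without each library in turn. Pathway genes that fell (5) were 2 with DESeq2 size factors, upper-quartile factors, TMM scaled to Sham 47 or the DESeq2 test, 1 with the acinar score or without PX 44, PX 65 and Sham 46, 3 without PX 58 and PX 62, 0 with the other 3 covariates or the 8 PX of BG 121 or less, and 0 to 5 without each library in turn. Genes rising with BG (0) were 12 and genes falling with BG (0) were 11 with the DESeq2 test, and 0 to 1 rising without each library in turn.

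Log2 fold changes that turned negative with the macrophage score, beside the 5 members given above, were those of Ifitm3 (-0.19), Tap2 (-0.11), Nlrc5 (-0.32), Psme1 (-0.12), Psme2 (-0.66), Psmb5 (-0.76), Psmb6 (-0.81), Psmb7 (-0.56), Ifnar1 (-0.21), Ifnar2 (-0.052), Irf8 (-0.22), Irf9 (-0.24), Ostf1 (-0.11), Ctsb (-0.35), Hbb (-0.70) and Clec2g (-0.26). The members were Irf7 (-0.66), Psmb8 (-0.57), Psmb9 (-0.39), Psmb10 (-0.57) and Tap1 (-0.59). With the lymphocyte score they were Irf7 (-0.17), Tap1 (-0.059), Nlrc5 (-0.011), Psme2 (-0.26), Psmb5 (-0.45), Psmb6 (-0.35), Psmb7 (-0.31), Irf9 (-0.0061) and Ctsb (-0.038). With BG they were Psme2 (-0.054), Psmb6 (-0.20) and Psmb7 (-0.0097). With library totals they were Psme2 (-0.13), Psmb5 (-0.062) and Psmb7 (-0.017), and without PX 58 and PX 62 Psme2 (-0.020). BG slopes turned negative with library totals for Gbp2 (-0.00071), Irf1 (-0.052), Irf7 (-0.037) and Psmb9 (-0.0033), with the macrophage score for Irf7 (-0.0098) and Psmb9 (-0.0023), and without PX 41 for Psmb9, whose slope ran from -0.011 to 0.139 without each PX library in turn. The causes were not tested. No paired analysis was possible because each animal number belongs to 1 library. Of the members, depth limits Isg15 most.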
